A study of Mus musculus with 6 samples.

Results

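The genes described here are the molecular chaperones of the mouse kidney and the genes that sense or clear unfolded protein beside them. They were chosen by symbol alone: every symbol of the Hspa, Hspb, Hspd, Hspe, Hsph and Hsp90 families, of the Dnaja, Dnajb and Dnajc families and of the numbered Pdia family, plus Calr, Canx, Xbp1, Ern1, Atf6, Herpud1, Sel1l, Syvn1, Edem1, Sdf2l1, Manf, Creld2 and Hyou1. The rule found 89 of the 17680 gene symbols measured. Among them, 19 encode chaperones and folding enzymes of the endoplasmic reticulum (ER) and are called ER chaperones below, 31 encode cytosolic heat shock proteins and their J-protein partners and are called cytosolic heat shock genes, and 39 belong to other classes. RNA sequencing covered kidneys of 6 wild-type C57BL/6 mice, 6 to 8 weeks old, with no transgene or deleted gene in either group. The LPS group was 3 mice given lipopolysaccharide (LPS), a component of the bacterial outer membrane, into the peritoneum to model septic kidney injury. The Control group was 3 mice given phosphate-buffered saline (PBS) by the same route, and kidneys of both groups were taken 24 h later. Each library is total RNA of kidney tissue, so it mixes all cell types of the organ, and at 1 time point.

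Chaperones bind proteins that are not yet folded or have lost their fold, and release them in cycles driven by ATP. In the ER lumen the HSP70 protein BiP, the HSP90 protein GRP94, the lectins calreticulin and calnexin and the protein disulfide isomerases fold secreted and membrane proteins. When unfolded protein builds up there, the sensors IRE1, ATF6 and PERK start the unfolded protein response, which raises ER chaperone genes through XBP1 and cleaved ATF6, while PERK slows translation and raises ATF4. In the cytosol, heat shock factor HSF1 controls a separate set of genes, among them the inducible HSP70 genes, and J proteins deliver clients to HSP70 and start its ATP hydrolysis.

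The libraries held between 29097558 and 33454344 counts. LPS replicate 2 stood apart: the 10 seminal vesicle genes looked up made 3.69% of its counts and at most 0.0430% of any other library, with Svs5, a seminal vesicle secretory protein, at 11595 CPM there and at most 14.2 CPM elsewhere. CPM here are counts relative to a library total scaled by TMM factors. Kidney identity was present in all libraries, since all 10 proximal tubule markers were detected in each, but their summed share of counts was 1.32% to 1.47% in LPS and 4.55% to 5.07% in Control. The summed level of 6 neutrophil markers was 64.8 to 90.4 CPM in LPS and 2.83 to 3.42 CPM in Control. Counts that lean on LPS replicate 2 are given with and without it. In whole tissue, fewer cells of a type and less RNA per cell cannot be told apart.

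The promoters of several members are shown first, because several of the ER genes that rose in these kidneys hold a short element upstream of their starts. The ER stress element (ERSE), the letters CCAAT, 9 bases of any kind and then CCACG on either strand, is the known binding site of NF-Y with ATF6 or XBP1. Each window holds the 250 bases before the start of the gene in RefSeq on GRCm38.p6, printed 5′ to 3′ on the strand of the gene, with the element in capitals. Hspa5 (BiP) lies at chr2:34771840-34772089, plus strand. Hsp90b1 (GRP94), with 2 matches, lies at chr10:86705445-86705694, minus strand. Calr (calreticulin) lies at chr8:84846932-84847181, minus strand, Pdia6 at chr12:17266339-17266588, plus strand, and Creld2 at chr15:88819396-88819645, plus strand. 
Hspa5: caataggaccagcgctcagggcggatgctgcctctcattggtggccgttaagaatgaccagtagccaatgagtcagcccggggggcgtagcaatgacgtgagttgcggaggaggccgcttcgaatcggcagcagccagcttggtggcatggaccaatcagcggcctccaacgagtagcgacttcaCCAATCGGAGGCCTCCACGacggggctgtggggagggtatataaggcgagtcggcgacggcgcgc
Hsp90b1: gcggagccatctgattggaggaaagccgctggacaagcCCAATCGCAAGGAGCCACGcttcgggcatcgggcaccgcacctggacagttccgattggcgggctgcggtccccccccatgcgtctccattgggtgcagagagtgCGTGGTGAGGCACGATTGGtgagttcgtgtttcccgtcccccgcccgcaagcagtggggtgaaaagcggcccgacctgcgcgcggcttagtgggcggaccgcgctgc
Calr: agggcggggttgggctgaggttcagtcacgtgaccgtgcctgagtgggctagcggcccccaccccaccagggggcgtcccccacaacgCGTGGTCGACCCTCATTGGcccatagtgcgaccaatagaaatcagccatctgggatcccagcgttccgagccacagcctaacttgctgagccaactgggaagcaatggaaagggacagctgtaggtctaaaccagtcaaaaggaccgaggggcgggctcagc
Pdia6: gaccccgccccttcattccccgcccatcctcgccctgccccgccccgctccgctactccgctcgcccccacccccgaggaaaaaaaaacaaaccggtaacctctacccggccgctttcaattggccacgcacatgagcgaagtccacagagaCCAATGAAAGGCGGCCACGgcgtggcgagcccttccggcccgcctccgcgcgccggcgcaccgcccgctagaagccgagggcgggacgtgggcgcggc
Creld2: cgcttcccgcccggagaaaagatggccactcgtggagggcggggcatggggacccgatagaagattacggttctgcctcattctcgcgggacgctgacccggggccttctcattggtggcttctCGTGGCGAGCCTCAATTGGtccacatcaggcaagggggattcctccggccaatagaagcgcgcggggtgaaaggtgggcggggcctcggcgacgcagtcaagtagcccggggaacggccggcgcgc

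A pair of further windows is shown from genes that were not raised in LPS. All printed windows were chosen with these results known, so they do not show how the letters and the rises go together. Canx, whose window holds the ERSE letters, did not pass. All 8 tested ER chaperones whose windows lack the ERSE letters were higher in LPS. Herpud1, an ER membrane protein of the degradation pathway, carries the related element ERSE-II, the letters ATTGG, 1 base of any kind and CCACG on either strand, in the 250 bases at chr8:94386179-94386428, plus strand. Dnajb11, whose window is not printed, also holds ERSE-II and was higher in LPS. Hspe1, the mitochondrial cochaperonin HSP10, shares with its neighbour Hspd1 (HSP60) a stretch between their starts, which lie 215 bases apart on opposite strands. That stretch holds the heat shock element searched, GAA, TTC and GAA with 2 bases of any kind between them, or the reverse complement, in overlapping matches on both strands, capitalised in the 30 bases at chr1:55088053-55088082, plus strand.
Herpud1: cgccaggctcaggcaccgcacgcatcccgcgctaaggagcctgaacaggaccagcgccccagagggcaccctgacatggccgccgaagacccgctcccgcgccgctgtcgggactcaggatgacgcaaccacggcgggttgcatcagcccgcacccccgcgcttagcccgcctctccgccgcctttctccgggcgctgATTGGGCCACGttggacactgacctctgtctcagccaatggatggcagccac
Hspe1: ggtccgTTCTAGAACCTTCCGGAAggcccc

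Of the 89 members, 72 had a promoter window in the RefSeq table, each of 300 bases from 250 before the start to just after it. The ERSE letters were in 37 of 27025 genes with a window, a share of 0.137%. Among ER chaperones with a window, 7 of 16 held them: Hspa5, Hsp90b1, Calr, Canx, Pdia6, Creld2 and Dnajc3. None of the 27 cytosolic heat shock genes with a window did, and among the other 29 members Syvn1 did. ERSE-II was in 12 genes (0.0444%), Herpud1 and Dnajb11 among them. The heat shock element was in 179 genes (0.662%), among them Hspd1, Hspe1, Hsph1 and Dnajb6, and the cyclic AMP response element TGACGT was in 2263 genes (8.37%), 9 of them members. A match is a description of letters, not a site in use, and its absence says only that these letters were not in the window. Hyou1, Manf and Hspa13 had no window in the table.

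In LPS kidneys nearly all ER chaperones were higher, while the cytosolic heat shock genes were split between higher, lower and uncalled. Of 85 members with enough counts to be tested, 33 were higher in LPS, 19 were lower and 33 did not pass, by edgeR's quasi-likelihood test with Benjamini-Hochberg adjustment over 14219 genes and a threshold of 0.05. All adjusted p-values below are from that test, and a gene said to have risen by a value did so by that log2 fold change ± SE. Over all genes tested, 25.7% were higher and 24.8% lower, so the members' 38.8% and 22.4% stand beside a background in which 50.5% of genes were called. At least 2-fold changes numbered 10 higher and 4 lower among members, beside 8.24% and 9.62% of all genes. The 4 members not tested were Pdia2, Dnajb7, Dnajc5b and Hspb9.

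Split by compartment, 17 of 18 tested ER chaperones were higher and 0 were lower, and 6 of them rose at least 2-fold. The count of 0 lower was the same at an unadjusted p of 0.05, with DESeq2 and with limma-voom. Their log2 fold changes lay between 0.12 and 2.24, with a median of 0.74. Of 29 tested cytosolic heat shock genes, 6 were higher, 9 lower and 14 did not pass. These shares of 20.7% higher and 31.0% lower stand beside 25.7% and 24.8% of all genes tested. The cytosolic log2 fold changes had a median of -0.01 and a range from -1.09 to 4.34. The top value belongs to Dnajb13, with 1 count in each Control library, and the next is 2.24 for Hspb1. The median over all genes tested was 0.01. The difference of 0.75 between the medians of both lists lay between 0.59 and 0.83 when each library was left out in turn. Groups did not overlap in 16 of the 18 ER chaperones, all higher in LPS, where 30.5% of all genes had no overlap in that direction. Without LPS replicate 2, 14 ER chaperones passed as higher, and 13 passed without LPS replicate 2 and Control replicate 1 together.

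**Figure D1:**
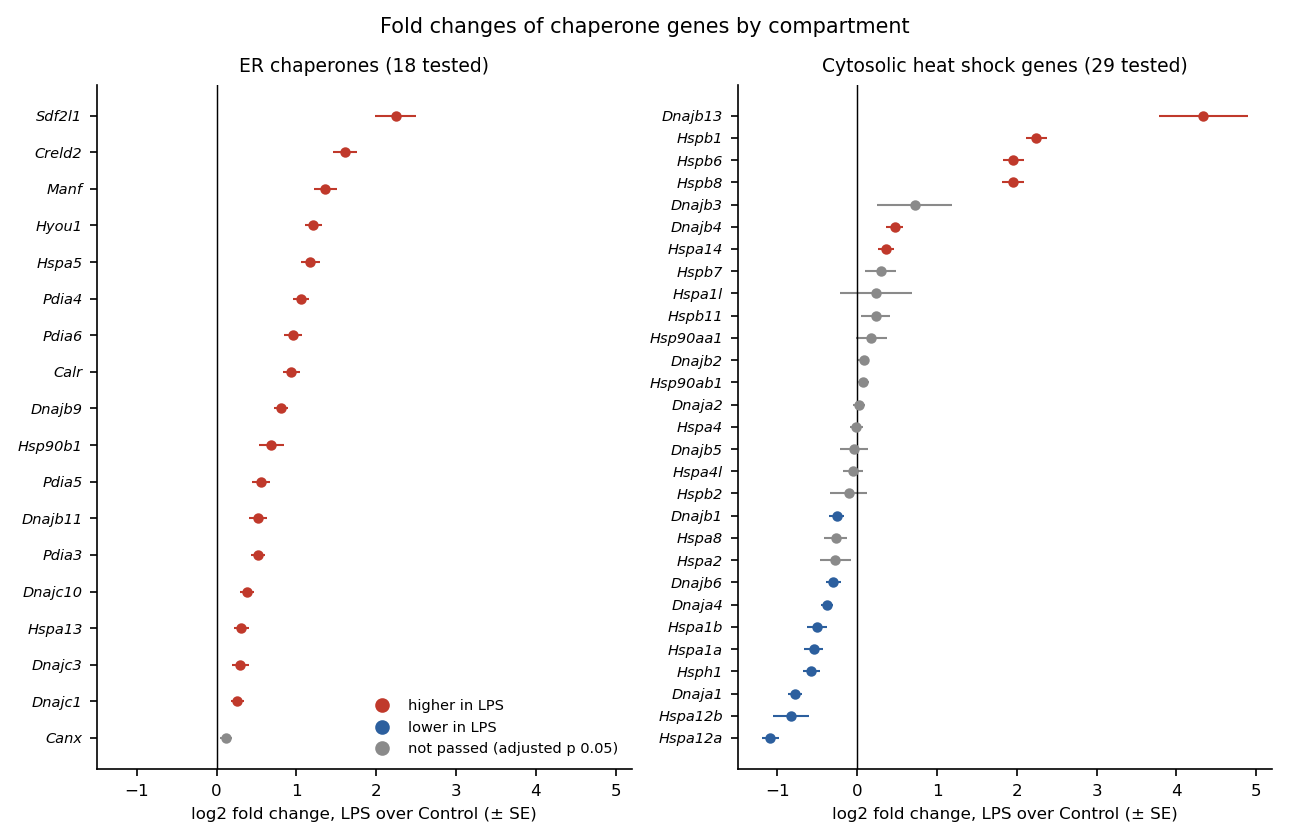
Log2 fold changes of LPS over Control (horizontal axis, ± SE, 3 libraries a group) for the 18 tested ER chaperones on the left and the 29 tested cytosolic heat shock genes on the right, coloured by call. The ER genes lie between 0.12 and 2.24, while the cytosolic genes spread from -1.09 to 4.34 around a median of -0.01. The value of 4.34 is Dnajb13, with 1 count in each Control library, and the next cytosolic value is 2.24 (Hspb1).

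The share of all counts taken by ER chaperones shows the same difference in each mouse. It was 0.555%, 0.633% and 0.646% in LPS replicates 1, 2 and 3, and 0.412%, 0.331% and 0.349% in Control replicates 1, 2 and 3. The means were 0.611% ± 0.0491 in LPS and 0.364% ± 0.0423 in Control (SD, n = 3), and every LPS library lay above every Control library. Cytosolic heat shock genes took 0.436%, 0.448% and 0.460% of counts in LPS and 0.478%, 0.470% and 0.509% in Control. There the order of the sum of counts was the opposite, with every LPS library below every Control library by a smaller margin. By FPKM, which also divides counts by gene length, the sums overlapped. They were 1774, 1840 and 1891 in LPS and 1852, 1875 and 2052 in Control. The sum of counts leans on Hspa8, at 1496 to 1741 CPM in LPS and 1553 to 2357 CPM in Control, which did not pass. The order of the count shares did not hold in each class. Cytosolic HSP90 genes took 0.160% to 0.167% in LPS and 0.141% to 0.178% in Control. Small heat shock genes took 0.0150% to 0.0156% in LPS and 0.00426% to 0.00481% in Control. Relative to the Control mean of each gene, the median ER chaperone lay 0.57, 0.82 and 0.85 higher on the log2 scale in the LPS libraries and at 0.10, -0.10 and -0.00 in the Control libraries. LPS replicate 1 was the lowest LPS library for 17 of the 18 ER chaperones.

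**Figure D2:**
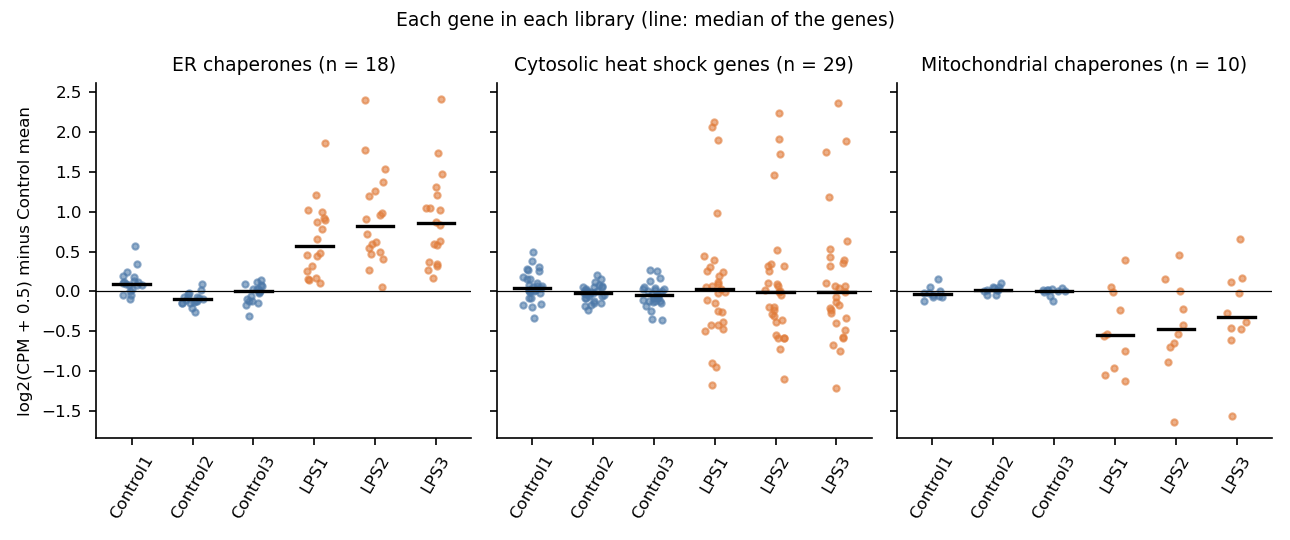
Each point is 1 gene in 1 library, as log2(CPM + 0.5) minus that gene's Control mean (vertical axis), for ER chaperones, cytosolic heat shock genes and mitochondrial chaperones, with a line at the median. The ER medians are 0.57, 0.82 and 0.85 in the LPS libraries, the mitochondrial medians are -0.55, -0.48 and -0.33, and the cytosolic medians stay within 0.05 of 0.

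Among the ER HSP70 and HSP90 proteins all 4 genes rose. Hspa5, which encodes BiP, the main HSP70 of the ER lumen, was at 967, 1230.2 and 1266 CPM in LPS and at 541, 462 and 534 CPM in Control. All 3 LPS libraries lay far above the Control libraries, and the log2 fold change was 1.17 ± 0.12 (SE), adjusted p = 5.2e-05. Hyou1, an HSP110-like nucleotide exchange factor that reloads BiP with ATP, was at 222, 282 and 252 CPM in LPS and at 111, 99.99 and 116 CPM in Control. Its groups were as clearly apart, with a log2 fold change of 1.21 ± 0.11 (adjusted p = 2.33e-05). Hsp90b1, which encodes GRP94, the HSP90 of the ER, was at 671, 791 and 875 CPM in LPS and at 605, 413 and 438 CPM in Control. Control replicate 1 was close to the lowest LPS library, and the log2 fold change was 0.68 ± 0.15 (adjusted p = 0.0054). Hspa13, a microsomal HSP70-like ATPase, rose by 0.31 ± 0.09 (adjusted p = 0.0213), a call lost without LPS replicate 2, without Control replicate 2 or 3, and without LPS replicate 2 and Control replicate 1 together (adjusted p up to 0.0942).

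The 3 ER stress cofactors had the 3 largest log2 fold changes of the tested ER chaperones. Sdf2l1, which works with the J protein ERdj3 on BiP clients, was at 36.3, 52.6 and 53.3 CPM in LPS and at 14.5, 7.91 and 7.63 CPM in Control, 4.73-fold higher in LPS. Its log2 fold change was 2.24 ± 0.25 (adjusted p = 0.000102), and even the lowest LPS library lay above the highest Control library. Creld2, a disulfide isomerase-like protein induced in ER stress, was at 63.9, 94.9 and 92.6 CPM in LPS and at 29.8, 24.7 and 27.9 CPM in Control, a log2 fold change of 1.61 ± 0.15 (adjusted p = 3.2e-05). Manf, a small ER protein that binds BiP and can be secreted, was at 111, 160.1 and 153 CPM in LPS and at 55.3, 49.5 and 60.4 CPM in Control, a log2 fold change of 1.36 ± 0.14 (adjusted p = 7.11e-05). For all 3 genes LPS replicate 1 was the lowest of the LPS libraries and still above all Control libraries.

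Of the lectin chaperones, which hold glycoproteins until they fold, 1 of 2 passed. Calr, the soluble lumenal lectin, was at 999, 1147 and 1178 CPM in LPS and at 661, 551 and 530.4 CPM in Control, with no overlap and a log2 fold change of 0.93 ± 0.11 (adjusted p = 0.000114). Canx, its membrane-bound relative, was at 551, 515 and 556 CPM in LPS and at 529, 472 and 493 CPM in Control. The groups of Canx overlapped, and its log2 fold change of 0.12 ± 0.08 did not pass (adjusted p = 0.231). Canx was the only tested ER chaperone without a call, although its promoter window holds the ERSE letters. The difference between Calr and Canx itself was not tested.

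All 4 tested disulfide isomerases of the Pdia family rose. Pdia4, a large isomerase that associates with BiP, was at 208, 258 and 233 CPM in LPS and at 119, 104 and 114 CPM in Control, a log2 fold change of 1.05 ± 0.10 (adjusted p = 3.97e-05). Pdia6, which also limits IRE1 signalling, was at 317, 338 and 360.1 CPM in LPS and at 206, 162 and 157 CPM in Control, a log2 fold change of 0.95 ± 0.11 (adjusted p = 0.000148). Pdia3 (ERp57), the partner of both lectins, was at 716, 735 and 791 CPM in LPS and at 572, 497 and 499 CPM in Control, a log2 fold change of 0.52 ± 0.09 (adjusted p = 0.00103). In all 3 genes the groups were apart. Pdia5 rose by 0.56 ± 0.11 (adjusted p = 0.0026). Pdia2, best known from pancreas, had too few reads for the test, with 3 counts over the LPS libraries and 42 over the Control libraries. Scaled for library size it was 14.96-fold higher in Control, with an exact 95% interval from 4.78 to 75.5 that covers counting error only.

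The 5 lumenal J proteins, which recruit BiP to its clients, rose by 0.26 to 0.81. Dnajb9 (ERdj4), which also helps keep IRE1 inactive, was at 103, 122 and 116 CPM in LPS and at 62.8, 63.6 and 68.9 CPM in Control, a log2 fold change of 0.81 ± 0.09 (adjusted p = 8.39e-05). Dnajb11 (ERdj3) was at 101, 122 and 126 CPM in LPS and at 92.0, 75.8 and 75.8 CPM in Control, a log2 fold change of 0.52 ± 0.11 (adjusted p = 0.00474). Both had separate groups. Dnajc10 (ERdj5), a reductase for proteins on their way to degradation, rose by 0.38 ± 0.09 (adjusted p = 0.00646), and Dnajc1, a membrane J protein facing the lumen, by 0.26 ± 0.08 (adjusted p = 0.0305). Dnajc3 (p58IPK), a lumenal cochaperone of BiP also described as an inhibitor of PERK, was at 234, 287 and 279 CPM in LPS and at 236, 197 and 218 CPM in Control. Its groups overlapped through LPS replicate 1 and Control replicate 1, and the rise of 0.30 ± 0.10 (adjusted p = 0.0402) was lost in 10 of 17 alternatives, among them leaving out LPS replicate 2 or 3 or Control replicate 2 or 3, with an adjusted p of up to 0.151 over the alternatives. The call of Dnajc1 was lost in 8 alternatives, among them leaving out LPS replicate 2 or 3 or Control replicate 1 or 2 (adjusted p of up to 0.218 over the alternatives), and that of Dnajc10 only without LPS replicate 2 and Control replicate 1 together (adjusted p = 0.0727).

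All 3 genes of the sensor class were higher, beside 25.7% of all genes tested. Atf6, the membrane-tethered transcription factor that is cut in the Golgi under ER stress, was at 114, 109 and 113 CPM in LPS and at 69.3, 73.1 and 80.4 CPM in Control, a log2 fold change of 0.59 ± 0.08 (adjusted p = 0.000301). Ern1, which encodes IRE1 alpha, the RNase that splices Xbp1 mRNA, was at 44.2, 46.7 and 37.9 CPM in LPS and at 30.03, 32.6 and 33.6 CPM in Control, a log2 fold change of 0.42 ± 0.09 (adjusted p = 0.00516). That call was lost without LPS replicate 2 and Control replicate 1 together (adjusted p = 0.0777). Xbp1 was at 383, 439 and 418 CPM in LPS and at 188, 173 and 301 CPM in Control. Control replicate 3 lay between its group and the LPS libraries, and the log2 fold change was 0.91 ± 0.19 (adjusted p = 0.00338), or 1.20 without that library. Counts per gene do not separate spliced from unspliced Xbp1.

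Members of ER-associated degradation (ERAD), which carries failed proteins back to the cytosol, had 1 of 4 called higher and 0 lower. The share of 25% higher is near the 25.7% of all genes tested, of which 24.8% were lower. Syvn1, the HRD1 ubiquitin ligase, was at 58.9, 73.5 and 65.9 CPM in LPS and at 43.0, 38.7 and 49.7 CPM in Control, a log2 fold change of 0.59 ± 0.11 (adjusted p = 0.002). Sel1l, its adaptor, was at 139.9, 145 and 132 CPM in LPS and at 123, 111 and 127 CPM in Control, 0.21 ± 0.08 higher (adjusted p = 0.0661). Edem1, a lectin that picks misfolded glycoproteins, was at 106, 119 and 115 CPM in LPS and at 124, 129 and 138 CPM in Control, a log2 fold change of -0.21 ± 0.08 (adjusted p = 0.0671). The groups of Sel1l and of Edem1 did not overlap, although neither passed, and Sel1l passed with DESeq2 (adjusted p = 0.0472), with limma-voom and without LPS replicate 3. At an unadjusted p of 0.05, 1 of the 4 genes was lower, and limma-voom called 0 lower. Edem1 passed as lower in 6 of 17 alternatives, with library sizes, a mean CPM of at least 1, DESeq2 and each of the 3 FPKM settings (adjusted p from 0.0331). Herpud1 was at 244, 278 and 255 CPM in LPS and at 249.7, 318 and 372 CPM in Control. Its groups overlapped, with a log2 fold change of -0.27 ± 0.13 (adjusted p = 0.12), which became -0.42 and passed without Control replicate 1 (adjusted p = 0.0121).

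**Figure D3:**
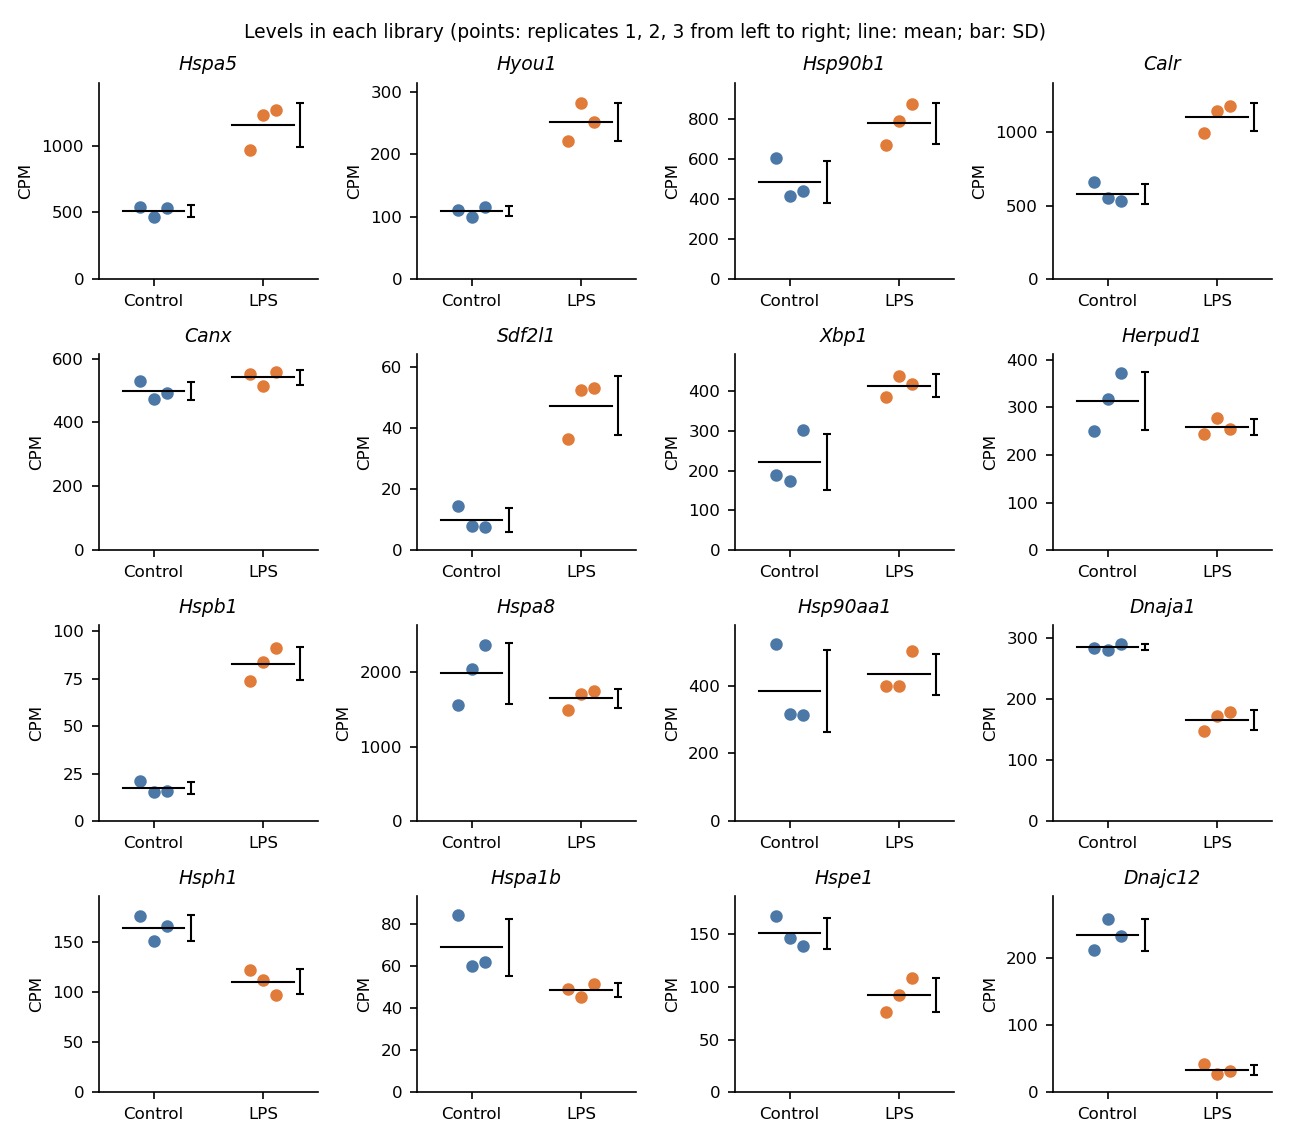
CPM (vertical axis, from 0) of 16 members in the 3 Control and 3 LPS libraries, with points for replicates 1, 2 and 3 from left to right, a line at the mean and a bar for the SD. Hspa5, Sdf2l1 and Hspb1 are separated upwards in LPS and Dnaja1 and Dnajc12 downwards, while Hsp90aa1, Hspa8 and Herpud1 overlap, with Control replicate 1 away from the other Controls.

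In the cytosol the HSP70 and HSP110 class had 5 of 11 genes lower, 1 higher and 5 not passed, with a median log2 fold change of -0.27. These shares of 45.5% lower and 9.09% higher stand beside 24.8% and 25.7% of all genes tested. In either direction, 50.5% of all genes were called. Hspa8 (HSC70), the constitutive HSP70, was at 1496, 1700.3 and 1741 CPM in LPS and at 1553, 2038 and 2357 CPM in Control. Its groups overlapped only through Control replicate 1, and its log2 fold change of -0.27 ± 0.14 did not pass (adjusted p = 0.143). Without Control replicate 1 it was -0.42 and passed (adjusted p = 0.0112). Hspa1b and Hspa1a, the stress-inducible HSP70 genes, were lower. Hspa1b was at 49.0, 45.2 and 51.3 CPM in LPS and at 84.1, 60.1 and 62.0 CPM in Control, a log2 fold change of -0.50 ± 0.13 (adjusted p = 0.00963). Hspa1a was at 18.9, 17.8 and 19.1 CPM in LPS and at 32.2, 25.5 and 23.7 CPM in Control, a log2 fold change of -0.55 ± 0.12 (adjusted p = 0.00509). These genes are near-identical copies, so the split of reads between them is uncertain. The Hspa1b call was lost without LPS replicate 2 and Control replicate 1 together (adjusted p = 0.0666), and the Hspa1a call was kept in all 17 alternatives.

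Hsph1 (HSP105), the nucleotide exchange factor of cytosolic HSP70, was at 122, 112 and 97.0 CPM in LPS and at 176, 150.5 and 165 CPM in Control. Its groups were apart and its log2 fold change was -0.57 ± 0.10 (adjusted p = 0.00172), opposite in sign to that of its ER counterpart Hyou1. Hspa12a, a distant HSP70 relative, was at 17.1, 14.9 and 13.7 CPM in LPS and at 34, 32.6 and 30.6 CPM in Control, a log2 fold change of -1.09 ± 0.10 (adjusted p = 3.94e-05), and Hspa12b, its endothelial relative, had a log2 fold change of -0.83 ± 0.22 (adjusted p = 0.0125, or 0.0507 without Control replicate 3). Hspa14, a ribosome-associated HSP70, rose by 0.36 ± 0.10 (adjusted p = 0.0172), a call lost without LPS replicate 3, without Control replicate 3 and without LPS replicate 2 and Control replicate 1 together (adjusted p up to 0.0678). Hspa4, Hspa4l, Hspa2 and Hspa1l did not pass, with log2 fold changes from -0.27 to 0.24.

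Neither cytosolic HSP90 gene passed the test, and the count of 0 in either direction was the same at an unadjusted p of 0.05, with DESeq2 and with limma-voom. Hsp90ab1, the constitutive form, was at 1256, 1213 and 1187 CPM in LPS and at 1214, 1115 and 1142 CPM in Control, a log2 fold change of 0.07 ± 0.07 (adjusted p = 0.424). Hsp90aa1, the inducible form, was at 398, 399 and 503 CPM in LPS and at 522, 315 and 312 CPM in Control. Control replicate 1 had the highest level of all 6 libraries, and the log2 fold change was 0.18 ± 0.20 (adjusted p = 0.479). Without that library it was 0.46 and passed (adjusted p = 0.0156).

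Most small heat shock proteins hold unfolded proteins without ATP. The class was taken here by the Hspb symbol alone, and of its 6 tested genes 3 rose and 0 fell. The share of 50% higher stands beside 25.7% higher and 24.8% lower of all genes tested. The count of 0 was the same at an unadjusted p of 0.05, with DESeq2 and with limma-voom. Hspb1 (HSP27 in humans, HSP25 in mice) was at 73.9, 83.5 and 91.1 CPM in LPS and at 21.0, 15.6 and 15.9 CPM in Control, 4.74-fold higher. Its log2 fold change was 2.24 ± 0.13 (adjusted p = 2.08e-06). Hspb6 (HSP20) was at 29.96, 30.2 and 29.8 CPM in LPS and at 6.75, 7.20 and 9.21 CPM in Control, a log2 fold change of 1.96 ± 0.13 (adjusted p = 4e-06). Hspb8 (HSP22), which works with BAG3 in selective autophagy, was at 30.8, 23.2 and 23.6 CPM in LPS and at 6.75, 7.0 and 6.31 CPM in Control, a log2 fold change of 1.95 ± 0.14 (adjusted p = 6.77e-06). The groups of these 3 genes were far apart, and their calls were kept in all 17 alternatives. Several small heat shock proteins are abundant in muscle. The 6 smooth muscle markers summed to 177 to 256 CPM in LPS and 239 to 303 CPM in Control, and 8 skeletal muscle markers to 6.05 to 7.55 CPM in LPS and 7.47 to 8.04 CPM in Control. The part of muscle in these rises was not tested. Hspb2, Hspb7 and Hspb11 did not pass, with mean levels of at most 5.84 CPM, and Hspb9 had 1 count in each group.

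The cytosolic J proteins of classes A and B, which feed clients to HSP70, split into 4 lower, 2 higher and 4 not passed. These shares of 40% lower and 20% higher stand beside 24.8% and 25.7% of all genes tested. Dnaja1 (HDJ2), the most abundant of the called genes of this class, was at 147, 173 and 179 CPM in LPS and at 284, 281 and 290.3 CPM in Control. The Control libraries were close together and far above LPS, with a log2 fold change of -0.78 ± 0.09 (adjusted p = 0.000119). Dnaja4 had a log2 fold change of -0.38 ± 0.07 (adjusted p = 0.00245) and Dnajb6, a suppressor of protein aggregation, one of -0.30 ± 0.09 (adjusted p = 0.0213). The Dnajb6 call was lost without LPS replicate 2 or Control replicate 2 or 3 (adjusted p up to 0.0921). Dnajb1 (HSP40), the classic heat-induced partner of HSP70, was at 46.8, 44.9 and 48.2 CPM in LPS and at 61.9, 55.4 and 50.02 CPM in Control. Its groups came close at Control replicate 3, and its log2 fold change of -0.26 ± 0.09 (adjusted p = 0.035) lost its call in 10 of 17 alternatives, among them leaving out any library but Control replicate 3, with an adjusted p of up to 0.324 over the alternatives. Dnajb4 rose by 0.47 ± 0.11 (adjusted p = 0.00656), and Dnaja2, Dnajb2, Dnajb3 and Dnajb5 did not pass.

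The largest fold among the members belonged to a gene near the detection limit. Dnajb13, a J protein of sperm flagella and motile cilia, had 72 counts over the LPS libraries and 3 over the Control libraries. Scaled for library size it was 22.5-fold higher in LPS, with an exact 95% interval from 7.38 to 111. In the GENCODE annotation 11.8% of its exon bases lie under exons of Ucp2 on the opposite strand, and Ucp2, a mitochondrial carrier, rose by 2.76 on the log2 scale, from 140.2 to 950.1 CPM (adjusted p = 5.28e-07). The sources used here do not say whether counting used the strand, so reads of Ucp2 and Dnajb13 cannot be told apart there. The same holds for Dnaja4 with Wdr61 (44.6% of exon bases), Hspb2 with Cryab (30.2%), Dnajc30 with Bud23 (26.2%), Dnajc14 with Ormdl2 (25.5%), Dnajc7 with Nkiras2 (12.3%), Dnajc17 with Zfyve19 (10.7%) and Dnaja1 with Smu1 (10.5%). Besides Ucp2, Nkiras2 passed as higher, with a log2 fold change of 0.23 (adjusted p = 0.0409). The other 6 partners did not pass, with log2 fold changes from -0.27 for Cryab to 0.17 for Ormdl2.

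Among the other class C J proteins, 3 of 12 tested fell, 3 rose and 6 did not pass, shares near those of all genes (24.8% lower and 25.7% higher). Dnajc12, a cochaperone that supports the aromatic amino acid hydroxylases, had the smallest p of all members. It was at 41.7, 27.4 and 31.3 CPM in LPS and at 212, 259 and 233 CPM in Control, 7.01-fold lower in LPS, with a log2 fold change of -2.81 ± 0.16 (adjusted p = 1.75e-06). Dnajc6 (auxilin), which strips clathrin from vesicles with HSC70, was at 13.6, 8.15 and 10.8 CPM in LPS and at 29.6, 35.3 and 40.3 CPM in Control, a log2 fold change of -1.69 ± 0.19 (adjusted p = 8.84e-05). Both stood far below Control in every LPS library. Dnajc13, an endosomal J protein, had a log2 fold change of -0.63 ± 0.11 (adjusted p = 0.00129). Dnajc5 (cysteine string protein alpha), a vesicle chaperone, was at 201, 194 and 213 CPM in LPS and at 118, 118 and 125 CPM in Control, a log2 fold change of 0.75 ± 0.08 (adjusted p = 6.39e-05). Dnajc8 and Dnajc17, linked to the spliceosome, rose by 0.48 ± 0.08 and 0.98 ± 0.16 (adjusted p = 0.000951 and 0.000993). The proximal tubule markers were lower in LPS by the shares given above, and their part in the falls was not tested.

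Of the mitochondrial chaperones, 6 of 10 were lower and 1 was higher, with a median log2 fold change of -0.47. These shares of 60% lower and 10% higher stand beside 24.8% and 25.7% of all genes tested. Hspd1 (HSP60), the chaperonin of the mitochondrial matrix, was at 407, 380.2 and 458 CPM in LPS and at 601, 617 and 576 CPM in Control, a log2 fold change of -0.53 ± 0.09 (adjusted p = 0.00103). Its lid Hspe1 was at 76.6, 92.2 and 108 CPM in LPS and at 167, 146 and 138 CPM in Control, a log2 fold change of -0.71 ± 0.13 (adjusted p = 0.00188). These neighbours with the shared promoter stretch shown above were lower in every LPS library. Dnajc19, of the import motor, had a log2 fold change of -0.87 ± 0.12 (adjusted p = 0.000347), Dnajc28 one of -1.45 ± 0.17 (adjusted p = 0.00012), Dnajc30 one of -0.58 ± 0.09 (adjusted p = 0.000771) and Dnajc15 one of -0.42 ± 0.10 (adjusted p = 0.0058). Hspa9 (mortalin), the mitochondrial HSP70, was at 654, 659.6 and 759 CPM in LPS and at 745, 783 and 788 CPM in Control, and its log2 fold change of -0.16 ± 0.08 did not pass (adjusted p = 0.142), except without LPS replicate 3 (adjusted p = 0.046). Dnajc11, of the cristae-organising complex, rose by 0.51 ± 0.08 (adjusted p = 0.000991). Proximal tubule cells are rich in mitochondria, and the part of their lower markers in this class was not tested.

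The remaining classes were small. Of the 7 membrane J proteins, Dnajc22 fell, from 97.0, 93.8 and 104 CPM in Control to 81.7, 70.0 and 74.4 CPM in LPS, a log2 fold change of -0.38 ± 0.08 (adjusted p = 0.0047), and the other 6 did not pass. That share of 14.3% lower stands beside 24.8% of all genes tested. Dnajc25 was at 14.1, 14.6 and 13.5 CPM in LPS and at 10.7, 12.9 and 11.0 CPM in Control, with no overlap and a log2 fold change of 0.29 ± 0.12 (adjusted p = 0.0726). It passed as higher in 4 of 17 alternatives, with each of the 3 FPKM settings and without Control replicate 2 (adjusted p from 0.0357). Hspbp1, a nucleotide exchange factor of HSP70, rose by 0.37 ± 0.10 (adjusted p = 0.0156), and Hspbap1, a binding protein of HSPB1, by 0.72 ± 0.17 (adjusted p = 0.0075). The Hspbp1 call was lost without Control replicate 3 and without LPS replicate 2 and Control replicate 1 together (adjusted p up to 0.0633).

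Levels per length show which chaperones make up most of the messages, with FPKM as counts divided by gene length and by the library total. Hspa8 led in both groups, at 779 ± 53.5 FPKM in LPS and 943 ± 178 FPKM in Control (SD, n = 3). Calr came next in LPS (568 ± 42.6 FPKM), ahead of Hsp90ab1 (484 ± 19.6 FPKM) and Hspa5 (453 ± 59.4 FPKM), whose levels lay within their spread. In Control, Hsp90ab1 was second (463 ± 30.5 FPKM), followed by Calr (300.4 ± 42.7 FPKM), Hspa9 (254 ± 2.76 FPKM), Hspd1 (232 ± 9.52 FPKM) and Hspa5 (203 ± 20.4 FPKM). Hspa5 thus stood below the mitochondrial Hspa9 and Hspd1 in Control and above both in LPS, where they were at 226 ± 17.2 and 159.7 ± 14.3 FPKM.

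The HSP70 family was taken here as Hspa5, Hspa8, Hspa9, Hspa1a, Hspa1b, Hspa2, Hspa1l, Hspa13 and Hspa14. Hspa12a, Hspa12b, Hspa4, Hspa4l, Hsph1 and Hyou1 were left out. Within this family the sum of FPKM differed by less than the spread, at 1514 ± 125 in LPS and 1461 ± 168 in Control, while its composition differed. BiP made 28.03%, 31.0% and 30.5% of the family in the LPS libraries and 16.9%, 12.4% and 12.8% in the Control libraries. HSC70 made 52.2%, 51.6% and 50.6% in LPS and 58.3%, 66.1% and 68.1% in Control. Neither share overlapped between the groups. In the HSP90 family (Hsp90aa1, Hsp90ab1 and Hsp90b1), GRP94 made 30.6% ± 2.76 in LPS and 22.6% ± 1.85 in Control, again without overlap. Shares add up to a whole, so these values show unequal change within a family only.

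**Figure D4:**
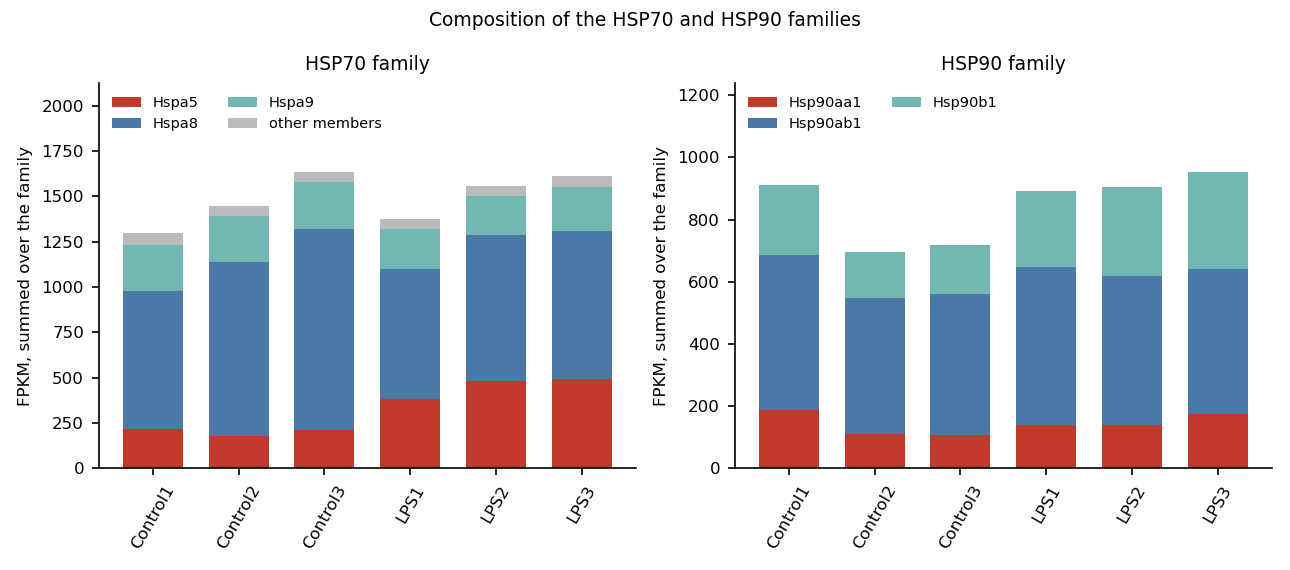
Summed FPKM (vertical axis, from 0) of the HSP70 family and of the HSP90 family in each library, stacked by gene. The Hspa5 segment is 28.03% to 31.0% of the HSP70 bar in LPS and 12.4% to 16.9% in Control, while the height of the HSP70 bars overlaps between the groups.

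Partner genes of the ER chaperones that are no members gave further detail. Their counts stand beside 25.7% higher and 24.8% lower over all genes tested. Of 33 genes of ER translocation and folding, 19 were higher and 3 lower, with a median log2 fold change of 0.33. The translocon pore gene Sec61a1 rose by 1.05 ± 0.08 and the signal peptidase genes Spcs3 and Spcs2 by 0.85 ± 0.09 and 0.74 ± 0.08 (adjusted p = 7.42e-06, 7.58e-05 and 0.00011). P4hb, the classic protein disulfide isomerase, rose by 0.51 ± 0.08 and Ppib, a prolyl isomerase of the ER, by 0.38 ± 0.09 (adjusted p = 0.000514 and 0.00662). Of 19 further genes of the ERAD machinery, 10 were higher and 3 lower, with a median of 0.23. Edem2 rose by 0.66 ± 0.07 and Derl3 by 2.91 ± 0.37 from a low level (3.52 without LPS replicate 2 and Control replicate 1 together), while the ubiquitin ligase Rnf5 had a log2 fold change of -0.58 ± 0.08 (adjusted p = 8.87e-05, 0.000196 and 0.000282).

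The PERK and ATF4 branch had the highest median of the partner lists, 1.12, with 10 of 13 genes higher and 0 lower. At an unadjusted p of 0.05, 1 of them was lower, as by DESeq2, and limma-voom called 0. Cebpb rose by 2.27 ± 0.10, Ddit3 (CHOP), a death-linked factor of prolonged ER stress, by 1.92 ± 0.10, and Asns, an ATF4 target for asparagine synthesis, by 2.70 ± 0.25 (adjusted p = 5.24e-07, 1.03e-06 and 3.5e-05). Atf4 itself rose by 0.78 ± 0.10 (adjusted p = 0.00027). Eif2ak3, which encodes PERK, had a log2 fold change of 0.21 ± 0.08 and did not pass (adjusted p = 0.0548), except without LPS replicate 1 (adjusted p = 0.0474). Of 9 ATF6 relatives and processing genes, 4 were higher (44.4%) and 2 lower (22.2%), with a median of 0.16. The lower share is near the 24.8% of all genes tested. Creb3l1 rose by 1.15 ± 0.18 and the gene Creb3l3 by 4.51 ± 0.74 from a mean of 0.121 CPM in Control, a value that was 3.88 without LPS replicate 1 and 5.34 without Control replicate 3. Tmbim6 (BAX inhibitor 1) had a log2 fold change of -0.49 ± 0.08 (adjusted p = 0.00104, beside 0.000817 for Creb3l1 and 0.000923 for Creb3l3).

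**Figure D5:**
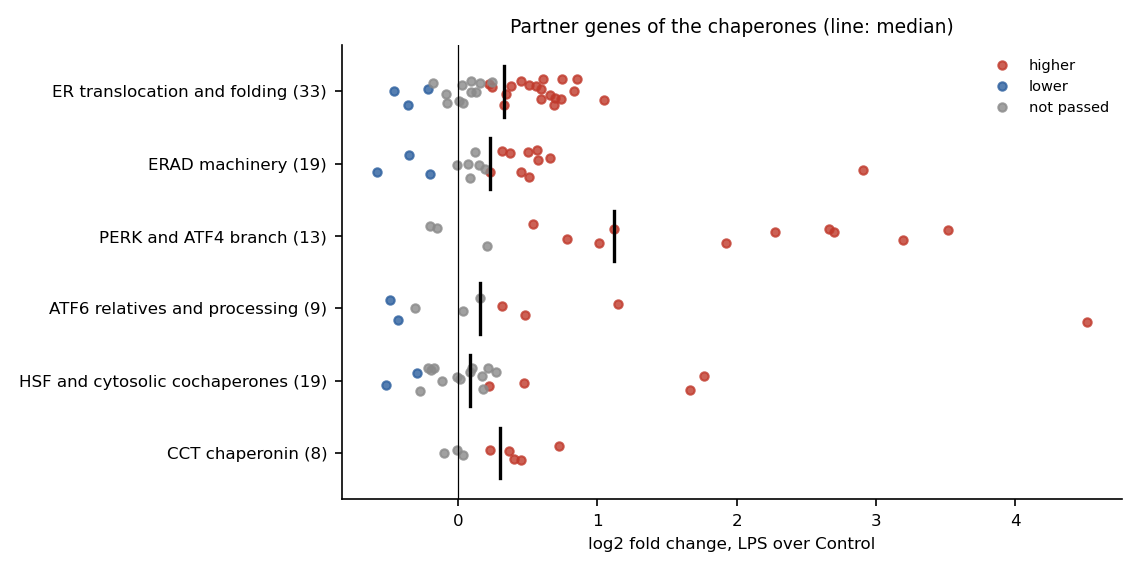
Log2 fold changes of LPS over Control (horizontal axis) of the genes in 6 partner lists, 1 point per gene, coloured by call, with a line at the median and the number tested in brackets. The medians run from 0.08 for HSF and cytosolic cochaperones to 1.12 for the PERK and ATF4 branch.

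Partners of the cytosolic chaperones were read from another pair of lists. Of 19 genes of HSF and cytosolic cochaperones, 4 were higher, 2 lower and 13 did not pass, with a median of 0.08. The shares of 21.1% higher and 10.5% lower stand beside 25.7% and 24.8% of all genes tested. Hsf1, the master factor of the heat shock response, had a log2 fold change of 0.22 ± 0.08 and did not pass (adjusted p = 0.057). Bag2 rose by 1.77 ± 0.13, Bag3, the partner of Hspb8, by 0.47 ± 0.08, and Fkbp5, an HSP90 cochaperone induced by glucocorticoids, by 1.67 ± 0.30 (adjusted p = 8.71e-06, 0.000901 and 0.00166). Cryab, the small heat shock protein alphaB-crystallin, had a log2 fold change of -0.27 ± 0.25 and did not pass (adjusted p = 0.405), except without LPS replicate 1 (log2 fold change -0.62, adjusted p = 0.0217) and with the replicate number as a block. Its sign changed, to a log2 fold change of 0.12, without LPS replicate 2 and Control replicate 1 together. The cytosolic chaperonin CCT, which folds actin and tubulin, had 5 of 8 subunit genes higher and 0 lower, with a median of 0.30. That count of 0 was the same at an unadjusted p of 0.05, with DESeq2 and with limma-voom. Cct3 rose by 0.72 ± 0.08, Cct5 by 0.45 ± 0.08 and Cct7 by 0.40 ± 0.07 (adjusted p = 8.37e-05, 0.0016 and 0.00165).

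Set against the promoter letters shown at the start, the ER chaperones rose with and without an ERSE match. The 7 genes with the letters had a median log2 fold change of 0.93, from 0.12 for Canx to 1.61 for Creld2, and 6 of them passed as higher. The 8 tested genes whose windows lack the letters all passed as higher, with a median of 0.54 and a range from 0.26 for Dnajc1 to 2.24 for Sdf2l1. The 3 genes with no window in the table had a median of 1.21. Of the 4 members with heat shock element letters, Hsph1, Hspd1, Hspe1 and Dnajb6, all were lower in LPS, at log2 fold changes from -0.71 to -0.30. Over all genes tested, 24.8% were lower. Hspd1 and Hspe1 hold these letters in the same shared stretch, so they are not separate cases. The Dnajb6 call was lost in 3 of 17 alternatives. The ERSE-II genes Dnajb11 and Herpud1 had log2 fold changes of 0.52 and -0.27. These counts describe the members and were not tested.

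Secretory cells are rich in ER chaperones, so markers of plasma cells were read beside them. The 4 of 7 plasma cell markers in the data summed to 55.0 to 61.7 CPM in LPS and 26.3 to 35.7 CPM in Control. Sdc1, which epithelia also express, made most of that sum, with 52.3 to 59.0 CPM in LPS and 20.6 to 23.6 CPM in Control. The defining marker Jchain was at 1.72 to 2.15 CPM in LPS and 4.62 to 11.5 CPM in Control. Mzb1 was at 0.584 to 1.11 CPM in LPS and 0.535 to 0.716 CPM in Control and did not pass, and Tnfrsf17 was at 0 in all libraries but Control replicate 2, which held 1 count. The part of plasma cells in the ER chaperone result was not tested. The part of neutrophils, whose markers rose as given above, in the ER chaperone result was not tested. The part of the seminal vesicle RNA of LPS replicate 2 was not tested either, and the counts without that library are given above.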

How the data were processed

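Total RNA of kidney tissue from 3 LPS and 3 Control mice was sequenced, with groups as in the sample titles. For each library the authors deposited raw counts by gene symbol, and FPKM values beside them. The tools named, per the submitters' processing notes and without role or order, are DESeq2, HISAT2, HTSeq, R 3.2.0 and SAMtools. Build, annotation and strand setting: not given in the sources used here. The deposited FPKM values equalled count over a whole-number length and library total in 106077 of 106080 values (relative tolerance 1e-06). No per-sample column was left without a sample (0).

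The members and lists were chosen with earlier results of these data known. Counts were tested in R 4.3.3 with edgeR 4.0.16: filterByExpr (minimum count 10, minimum total 15) kept 14219 genes and removed 3461, libraries were scaled by TMM, and LPS was compared with Control by the two-sided quasi-likelihood test with Benjamini-Hochberg adjustment over all genes kept. The SE is the absolute log2 fold change over the square root of the F statistic. Medians and counts of lists carry no test. Values of every library were to be given for the 3 members of each class with the smallest p and for 33 listed symbols, 50 members in all, and others were given as examples after their values were seen. Non-member partners were named by the 3 smallest p of each list and 8 listed symbols. Replicates were separate mice per the series' design text, and all pairs of libraries within a group differed beyond sampling noise (chi-square per degree of freedom of at least 11.5). Floors and intervals cover counting error only.

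On counts simulated for LPS against Control over 14219 genes, 67 genes were altered 1.5-fold, 67 genes 2-fold and 66 genes 4-fold. The share of altered genes recovered was 46.3% at 1.5-fold, 79.1% at 2-fold and 98.5% at 4-fold, and 14 of 163 calls were unchanged genes. In the data 50.5% of genes were called, so the simulated shares need not hold there. Promoter windows are from RefSeq on GRCm38.p6, in which 72 members matched by symbol and 17 did not, and exon overlaps are from GENCODE on the same build. Protein sequences were not used here, so a planned count of protein tails was not made. The alternatives were DESeq2 1.42.0 or limma-voom (limma 3.58.1) as the test, limma on log2 FPKM with 1 or 0.1 added, or only for genes with a mean FPKM of 1 or more, RLE factors or library sizes for scaling, no filter or a mean CPM of 1 or more, a block for the replicate number, each library left out in turn, and, chosen after seeing the data, LPS replicate 2 and Control replicate 1 left out together.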

Additional observations from a re-analysis of the deposited data

How the results depend on the processing

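Over 17 alternatives, 41 of the 52 member calls were kept in every alternative that tested the gene, 11 were lost in at least 1, 7 of 33 uncalled members passed in at least 1, and 0 called members changed sign. ER chaperones higher in LPS numbered 14 to 17 when each library was left out, and 15 with FPKM. ER chaperones lower in LPS went from 0 to 1 with no low-count filter and ranged from 0 to 1 when each library was left out, when Pdia2, with 3 counts in LPS, entered the test. PERK and ATF4 genes lower in LPS went from 0 to 1 with library sizes, a mean CPM of at least 1, DESeq2, log2(FPKM + 1), log2(FPKM + 0.1) and a mean FPKM of at least 1. HSF and cytosolic cochaperone genes lower in LPS, 2 in all libraries, ranged from 1 (without Control replicate 1) to 4 (without LPS replicate 1) when each library was left out, and numbered 1 without LPS replicate 2 and Control replicate 1 together. The cause was not tested.

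Same-numbered libraries had deviations correlated at 0.0478, -0.0535 and -0.00201, and LPS replicate 3 correlated best with Control replicate 2 (0.111). These values show no pairing by number, but with 3 libraries a group they cannot exclude it. With the replicate block, members numbered 32 higher and 18 lower, ER chaperones 16 higher, and cytosolic heat shock genes 6 higher and 8 lower. Dnajb1 (adjusted p = 0.0622) and Dnajc3 (adjusted p = 0.0649) lost their calls there. Depth limits Dnajb13, Pdia2, Dnajb7, Dnajc5b and Hspb9, each with at most 3 counts in 1 group.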

Other observations

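The libraries of a group did not carry the chaperones evenly, a pattern noticed in the values and not tested. LPS replicate 1 was the lowest LPS library for 17 of 18 tested ER chaperones, and LPS replicates 2 and 3 were each the highest for 9. For the 29 tested cytosolic heat shock genes, LPS replicate 1 was the lowest for 11 and the highest for 7. Control replicate 1 was the highest Control library for 12 of the 18 ER chaperones and for 15 of the 29 cytosolic heat shock genes. Hsp90aa1, the inducible HSP90, was at 522 CPM there and at 315 and 312 CPM in the other Controls, Hspa1b was at 84.1 CPM against 60.1 and 62.0 CPM, and Sdf2l1 was at 14.5 CPM against 7.91 and 7.63 CPM. Hspa8 and Herpud1 went the other way, at 1553 and 249.7 CPM there and at 2038 to 2357 CPM and 318 to 372 CPM in the other Controls. In the same library, adipocyte markers summed to 74.8 CPM against 221 and 310.4 CPM, and hepatocyte markers to 1304 CPM against 1756 and 1999 CPM. Cyp2e1 made most of the hepatocyte sum, at 1153 CPM there and 1562 and 1811 CPM in the other Controls. Of the 6 hepatocyte markers only Alb was not lowest there, at 11.4 CPM against 12.9 and 8.91 CPM. The hepatocyte sum thus does not show hepatocyte content. The part of both marker sums in these values was not tested.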
